A study of Mus musculus with 4 samples.

Results

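Young-only regions are stretches of the mouse autosomes that were called accessible in fibro/adipogenic progenitors (FAPs) of young mdx mice, both with and without trichostatin A (TSA), and in neither library of old mdx mice. Touching or overlapping regions of the 4 libraries were merged, and a merged region was kept when it held a call of both young libraries and of no old library. This gave 3470 of the 163967 merged autosomal regions, or 2.12% (95% exact binomial interval 2.05 to 2.19%). They covered 6.68 Mb. The regions were chosen by the calls themselves, so their presence in young and absence in old mice is the definition and not a result.

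FAPs are stromal cells that lie between muscle fibres, help satellite cells repair damaged muscle, and turn into fibroblasts and fat cells when dystrophic muscle degenerates. Histone deacetylases remove acetyl groups from histone tails and so favour compact chromatin, and TSA blocks these enzymes. In NA-seq a restriction enzyme enters intact nuclei and cuts where its site lies in open chromatin. The enzymes used on the nuclei here were NlaIII, which reads CATG, or HpaII, which reads CCGG and does not cut when the inner CpG is methylated. A region with no such site cannot be called. The labels do not say which of these enzymes was used for which library, and libraries cut with different enzymes could not call the same sites.

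Each of the 4 groups was 1 library of FAPs from hind limb muscle of mice labelled C57BL/6 mdx, a strain that lacks dystrophin, so controls and treated mice share that defect. Young and old mice each gave a control and a TSA library. Treated mice received TSA at 0.5 mg per kg per day by intraperitoneal injection for 15 days, and control mice received saline. The labels give the ages only as young and old, and they do not state whether animals were pooled. The sort took Sca-1+ cells that lacked α7 integrin, CD31, CD45 and Ter119, which mark satellite, endothelial and blood cells. The identity of the sorted cells was not checked against marker genes, because the regions were not joined to genes.

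The lists differed in length, which bears on every count below. On the autosomes the young control held 42904 regions, young TSA 79375, old control 95128 and old TSA 85889. They covered 67.2, 140.2, 165 and 147 Mb in that order. The files give a chromosome, a start and an end, with no read count or score, so the depth is unknown. An uncalled region is therefore one below the authors' calling limit, not one shown to be closed. Each group was a lone library, so the spread between animals is unknown and no test was run. The intervals below reflect counting error alone, with regions taken as independent.

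The young-only regions were a minority of what the young libraries shared. Both young libraries called 24259 merged regions, and 14.3% of these (13.9 to 14.8%) had no old call. In the mirror comparison, both old libraries called 46566 regions, and 11916 of these, or 25.6% (25.2 to 26.0%), had no young call. The other pairs that hold the young control gave lower shares. Of the 22117 regions shared by the controls, 10.9% (10.5 to 11.3%) were in neither TSA library. Of the 22477 shared by young control and old TSA, 10.2% (9.80 to 10.6%) were in neither other library. The pairs of young TSA with an old library gave 20.3% (old control) and 19.2% (old TSA). The share was thus highest for the pair with the longest lists, and among the pairs with the young control it was highest for the young pair.

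Young-only regions took a larger part of the control list than of the TSA list. They held 3483 of the young control calls, or 8.12% (7.86 to 8.38%), and 3493 of the young TSA calls, or 4.40% (4.26 to 4.55%). The shorter length of the control list alone makes its share larger, since both lists hold nearly the same number of calls in these regions.

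Agreement between the young libraries was lowest where the old mice had no call. Of 14447 young control regions without any old call, 24.0% (23.3 to 24.7%) were also called in young TSA. That share was 53.8% for those with a call in old control only, 59.0% for those with a call in old TSA only, and 86.9% (86.4 to 87.4%) for those called in both old libraries. Young control regions absent from old mice were thus mostly calls of that library alone. From the other side, 16.0% (15.5 to 16.4%) of 21750 young TSA regions without an old call were also called in the young control. The share reached 45.2% (44.7 to 45.8%) for young TSA regions that both old libraries called. The old libraries had the same order, with 26.7% (26.2 to 27.1%) of old control regions that lacked a young call found in old TSA, and 83.9% of those that both young libraries called.

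**Figure D1:**
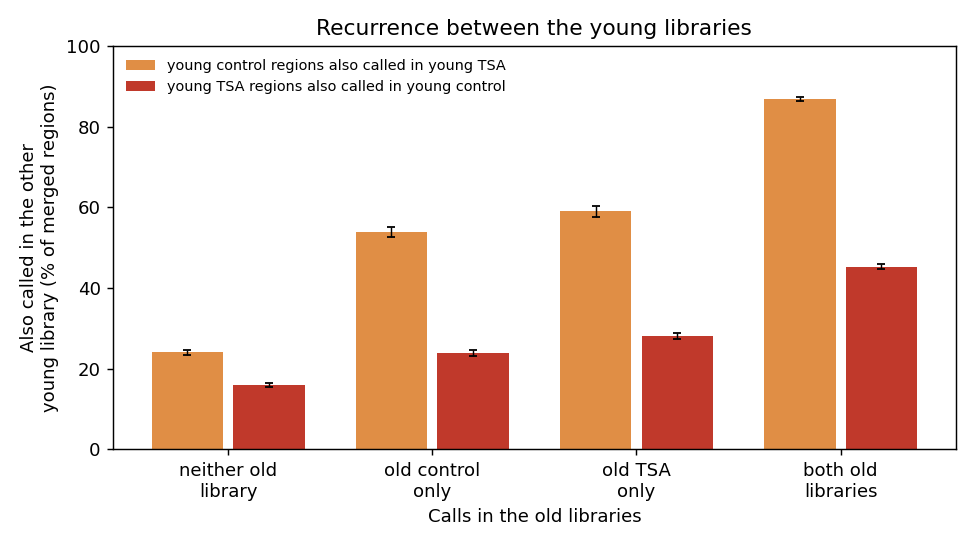
Share of merged autosomal regions of each young library (y axis, %) that the other young library also called, split by calls in the old libraries (x axis); bars are shares and whiskers 95% exact binomial intervals. The left pair, with 24.0% and 16.0%, is the agreement that makes the young-only regions, and the right pair reaches 86.9% and 45.2%.

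Most young-only regions were under 2000 bp wide, as were most merged regions when all patterns were pooled, though not most regions called in all 4 libraries. Their merged widths ran from 1000 to 6200 bp with a median of 1900 bp, and 1368 regions, or 39.4%, were exactly 1900 bp wide. This width was as common in old-only regions, at 41.0%, and made up 30.7 to 40.7% of the other patterns of 2 libraries. By class, 538 regions (15.5%) were under 1500 bp, 2099 (60.5%) were 1500 to under 2000 bp, 622 (17.9%) were 2000 to under 3000 bp and 211 (6.08%) were 3000 bp or more. The old-only regions, which are also shared by 2 libraries, had nearly the same make-up, with 13.5%, 59.4%, 19.9% and 7.08% in these classes. Over all merged regions, which include those of 1 library, the shares were 33.6%, 43.8%, 14.8% and 7.82%. Regions called in all 4 libraries had a median of 2500 bp, but a merged width grows with the number of libraries merged. The width of a young call does not grow in this way, but a longer call has more room to meet an old call, so part of the order below is fixed by the rule.

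Narrow young calls were more often young-only than wide ones. In young TSA, 29.0% (27.6 to 30.3%) of the calls under 1500 bp that lay in regions shared by both young libraries were in young-only regions. This fell to 15.1% at 1500 to under 2000 bp, 4.55% at 2000 to under 3000 bp and 3.25% (2.65 to 3.94%) at 3000 bp or more. The order was the same in the young control for the first 3 classes, at 18.0% (17.2 to 18.9%), 13.2% and 6.43%, and the widest class had 6.36% (4.81 to 8.22%), which does not differ from the class before it beyond counting error. The median young TSA call measured 1700 bp in young-only regions and 1900 bp in regions that an old library shared. For the young control these medians were 1500 and 1800 bp. Calls at the shortest width of 1000 bp were 10.7% of the young TSA calls in young-only regions and 3.77% of those in shared regions. At the narrow end the difference from the whole library was small. All autosomal young TSA calls held 11.0% at 1000 bp and 33.2% under 1500 bp, where those in young-only regions held 36.0% under 1500 bp. In the young control, 14.8% of all calls and 13.5% of those in young-only regions were 1000 bp wide, and 45.5% and 44.4% were under 1500 bp. Wide calls were fewer than in the whole library. In young TSA, calls of 2000 to under 3000 bp were 6.96% in young-only regions and 12.2% of all calls. Those of 3000 bp or more were 2.83% and 5.68%. In the young control these shares were 4.79% and 6.69%, then 1.55% and 2.10%. The young calls of young-only regions were thus narrower than those that an old library shared. Beside their own library they held about the same share of narrow calls and a smaller share of wide ones.

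**Figure D2:**
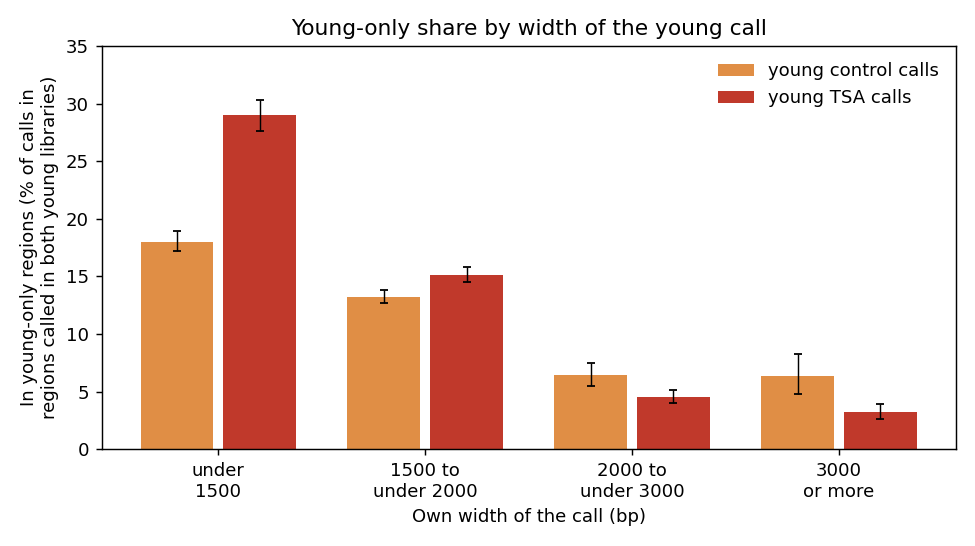
Share of young calls that lie in young-only regions (y axis, % of the calls of that library in regions called in both young libraries) by the call's own width (x axis, bp); bars are shares and whiskers 95% exact binomial intervals. Young TSA falls from 29.0% to 3.25% across the classes and the young control from 18.0% to 6.36%.

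Where the young calls met, they covered much of the same sequence. Young control calls covered 5.41 Mb of the young-only regions, young TSA calls 5.81 Mb, and both together 4.54 Mb. The shared sequence was 67.9% of that covered by either, close to the 65.8% found in regions that both young libraries and an old library called. In 3435 regions (99.0%) each young library had 1 call, and no region held more than 2 calls of a library. The calls had the same start and the same end in 690 regions, or 19.9% (18.6 to 21.3%), against 17.9% (17.4 to 18.4%) of the shared regions with an old call. Of these 690, 402 were 1900 bp wide and 75 were 1000 bp wide. Of the 3724 such regions with an old call, the young calls were 1900 bp wide in 2644 and 1000 bp wide in 104. At the other extreme, 18 young-only regions rested on young calls that touched but shared no sequence.

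The young control call was the wider of the pair more often in young-only regions than elsewhere. Young TSA covered more in 1539 of the 3470 regions (44.4%, 42.7 to 46.0%), the control covered more in 1082 (31.2%, 29.6 to 32.8%), and 849 were equal. Among regions of both young libraries with an old call, TSA covered more in 62.0% (61.3 to 62.6%) and the control in 16.9% (16.4 to 17.4%). Regions with a call in old control only or old TSA only lay between, with the control wider in 24.7% and 22.9%, and for regions called in all 4 libraries it was wider in 14.0%. Young TSA calls were also narrower in young-only regions, as described above, and the part that width plays in this order was not tested.

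The widest young-only region lay on chromosome 11 from 95711601 to 95717800 and spanned 6200 bp. Young control covered 1300 bp of it and young TSA 5100 bp in 2 calls, with 200 bp in common, and the nearest old call, of old TSA, was 1100 bp away. It therefore joins calls that barely overlap. On chromosome 4 from 62975101 to 62980600 a young TSA call filled all 5500 bp and the control covered 1900 bp inside it. On chromosome 5 from 116356701 to 116361800, 5100 bp wide, the control covered 3100 bp and TSA 4600 bp, with 2600 bp in common, and both old libraries had their nearest call 11500 bp away. Among the 5 widest regions this one lay farthest from an old call, with 12 other merged regions within 50 kb. The region on chromosome 7 from 87942901 to 87948000 had 4800 bp in the control and 3400 bp in TSA, and an old TSA call lay 100 bp from its edge. On chromosome 3 from 121945001 to 121949900 the control covered 3500 bp in 2 calls, TSA 3800 bp in 1 call, and an old control call lay 1100 bp away. None of these 5 regions overlapped a differential list of the authors. Few young-only regions did, with 1.64% in the list higher in young TSA and 0.317% in the list higher in young control. Among young-only regions of 3000 bp or more, the class of these 5, the shares were 8.06% and 2.37%.

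Many young-only regions had an old call close by. The gap to the nearest call of either old library had a median of 4000 bp (quartiles 1600 and 8700 bp), and of 7200 bp when only calls at or above the median width of their library were used. It was at most 1000 bp for 593 regions (17.1%) and at most 10000 bp for 2745 (79.1%), while 21 regions lay more than 50 kb from any old call. Regions called in young TSA alone had nearly the same median gap, 4100 bp, and those of the young control alone a median of 5100 bp. Old-only regions lay farther from young calls, with a median of 7300 bp and 59.2% within 10000 bp. The young lists were also shorter than the old ones, and the part that list length plays in this difference was not tested. The nearest old call belonged to old control for 1584 young-only regions (45.6%), to old TSA for 1314 (37.9%), and was equally far for 572 (16.5%).

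**Figure D3:**
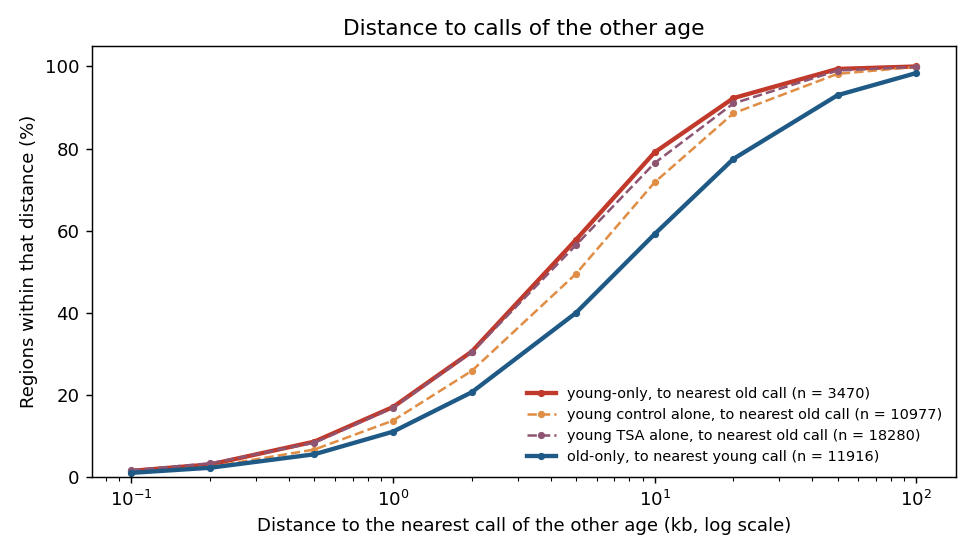
Cumulative share of regions (y axis, %) whose nearest call of the other age lies within a given distance (x axis, kb, log scale); lines are sets of merged autosomal regions. The young-only curve passes 57.8% at 5 kb and nearly coincides with young TSA alone, while the old-only curve stands at 40.0% there.

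At the limit of the rule, 54 young-only regions had an old call 100 bp away, the smallest gap there is, since all coordinates are multiples of 100 bp. Just outside it, 18 regions of both young libraries left the set because an old call only touched the young calls, and 25 because an old call shared 100 bp with them. These are few beside the 20789 regions of both young libraries with an old call, in which young and old calls shared a median of 1900 bp.

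A handful of young-only regions stood far from any old call. The farthest, on chromosome 17 from 6427701 to 6429600, had the same 1900 bp call in both young libraries. Old control was 211300 bp away and old TSA 239000 bp, and no other merged region of any library lay within 50 kb. On chromosome 2 from 107805901 to 107807400 each young library covered 1400 bp, with 1300 bp in common, and the nearest old call, of old TSA, was 78500 bp away. This region too had no other region within 50 kb. The region on chromosome 13 from 9445201 to 9446400 had 1100 bp in the control and 1200 bp in TSA, at 76900 bp from old control and 118300 bp from old TSA. On chromosome 12 from 80603101 to 80605000 the control call had 1900 bp and the TSA call 1000 bp, with old control 71800 bp away. On chromosome 13 from 83298901 to 83300800 the order was reversed, with 1100 bp in the control and 1900 bp in TSA, and old control was 66500 bp away. For 4 of these 5 regions the nearest old call was of old control, the longest list. In all, 11 of the 3470 young-only regions had no merged region of any library within 50 kb.

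Few young-only regions differed between TSA and control in the young mice. The authors' deposited lists hold no fold or p-value, and a region counted as listed when it overlapped a listed region by at least 1 bp. Among all 24259 regions of both young libraries, 10.9% overlapped the list that was higher in young TSA (gained) and 0.326% the list that was higher in young control (lost). Of the young-only regions, 57 (1.64%, 1.25 to 2.12%) overlapped the gained list and 11 (0.317%, 0.158 to 0.566%) the lost list. The share of gained regions was therefore well below that background, while the share of lost regions was near it. With regions closer than 1 kb merged, the lost share was 0.749% (0.475 to 1.12%) against a background of 0.480%. With only calls at or above the median width of their library, the gained share was 3.26% against 15.4%. The gained share was 3.76% where old control also had a call, 3.94% where old TSA had one, and 16.1% (15.5 to 16.7%) where both had. No young-only region was in both lists, and 3402 were in neither. Since the young libraries called all these regions at their own limits, absence from a list does not show equal accessibility.

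The low gained share held within the classes of merged width from 1500 bp up. In regions with an old call the merged width includes that call, and the widest class has no upper limit. A class therefore does not match the widths of the young calls. At 1500 to under 2000 bp, 0.619% (0.330 to 1.06%) of young-only regions overlapped the gained list, against 5.03% (4.50 to 5.59%) of regions of both young libraries with an old call. At 2000 to under 3000 bp the shares were 4.34% (2.88 to 6.25%) and 11.8% (11.1 to 12.6%). At 3000 bp or more they were 8.06% (4.76 to 12.6%) and 21.8% (20.7 to 22.8%). Under 1500 bp neither set had a listed region, of 538 and 294 regions, which allows shares of up to 0.683% and 1.25%. For the lost list the intervals overlapped in every class, which does not show that the shares were equal. At 2000 bp and above the share was higher in young-only regions, from few listed regions. At 1500 to under 2000 bp the shares of 0.0476% and 0.0467% rest on 1 and 3 regions. At 2000 to under 3000 bp 0.804% (0.262 to 1.87%) of young-only regions were lost against 0.278% (0.174 to 0.420%), from 5 of 622 and 22 of 7927 regions. At 3000 bp or more 2.37% (0.774 to 5.44%) of young-only regions were lost against 0.700% (0.507 to 0.942%), from 5 of 211 and 43 of 6142 regions. From the side of the lists, young-only regions took 0.687% of the 8298 autosomal gained regions and 2.40% of the 458 lost regions. For scale, they held 4.40% of all young TSA calls and 8.12% of all young control calls. They were 2.12% of all merged regions. Both list shares were thus below the share of calls in the library where the listed regions were higher.

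In the 57 gained regions the TSA call was usually the wider one, and the reverse held for the 11 lost regions. TSA covered more in 40 of the 57 and the control in 8, with medians of 1900 bp in TSA and 1600 bp in the control. In the 3402 young-only regions of neither list, TSA covered more in 1497 and the control in 1066. Their medians were 1700 bp in TSA and 1500 bp in the control, so the medians differed in a like way without listing. Among the 11 lost regions the control covered more in 8 and TSA in 2, with medians of 1900 bp in the control and 1700 bp in TSA. The direction of the authors' lists and the widths of the calls thus went together in most regions, with exceptions in each list.

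The widest young-only region of the gained list was on chromosome 2 from 13318001 to 13322300. A TSA call filled its 4300 bp and the control covered 1100 bp. The same form was found on chromosome 11 from 102325501 to 102329500, with 4000 bp in TSA and 1100 bp in the control, and again on chromosome 7 from 140688301 to 140692100, with 3800 bp and 1000 bp. In these 3 regions the TSA call enclosed a narrow control call. In the other 2 of the 5 widest the control covered more. On chromosome 17 from 37454201 to 37458300 the control covered 3200 bp and TSA 2000 bp. For chromosome 7 from 116759101 to 116762900 the control covered 3400 bp and TSA 1900 bp. The authors list only 1400 bp of the first and 1900 bp of the second as higher in TSA. The covered widths of the whole regions therefore need not go against the list.

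The widest lost young-only region, on chromosome 1 from 171985401 to 171990100, had 3900 bp in the control and 4400 bp in TSA, and a listed part of 1000 bp. In the next 4 the control call was wider. On chromosome 11 from 59952101 to 59955600 it had 3500 bp against 1900 bp in TSA, and on chromosome 9 from 45818401 to 45821700 it had 3300 bp against 1900 bp. On chromosome 2 from 160629601 to 160632800 the values were 2600 and 1900 bp, and on chromosome 1 from 156955901 to 156959000 they were 3100 and 1500 bp. The nearest old calls of these 5 regions were 1200 to 8500 bp away.

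By the rule, a young-only region has no old call, so few can be in the old differential lists. The background in regions of both young libraries was 2.78% for the list higher in old TSA and 2.48% for the list higher in old control. One young-only region, on chromosome 14 from 26045401 to 26047300, overlapped the list higher in old TSA, and none overlapped the other. It was singled out after its values were seen. The old TSA library itself had its nearest call 400 bp away, so this listed region is not among the regions called in that library. How the differential lists were made is not stated, and they may rest on regions called in another way than the library lists, which bears on every overlap with them.

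The share of young-only regions varied moderately between autosomes. It was highest on chromosome 11, with 283 of 1653 regions of both young libraries or 17.1% (15.3 to 19.0%), on chromosome 19 with 17.0% (14.2 to 20.0%) and on chromosome 16 with 16.8% (14.2 to 19.6%). It was lowest on chromosome 8, with 164 of 1435 or 11.4% (9.83 to 13.2%), and on chromosome 14, with 102 of 896 or 11.4% (9.38 to 13.6%). The intervals of chromosomes 5, 8 and 14 lay below the 14.3% of all autosomes and that of chromosome 11 lay above it, and those of the other 15 chromosomes included it. These intervals are not adjusted for the 19 chromosomes compared. Per Mb, chromosome 11 held 2.38 young-only regions and chromosome 14 held 0.843. Chromosome 11 had 8.16% of the young-only regions and 5.74% of all merged regions. The old-only share had another order, with 22.5% of regions of both old libraries on chromosome 11, 21.1% on chromosome 19 and 30.0% on chromosome 14.

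**Figure D4:**
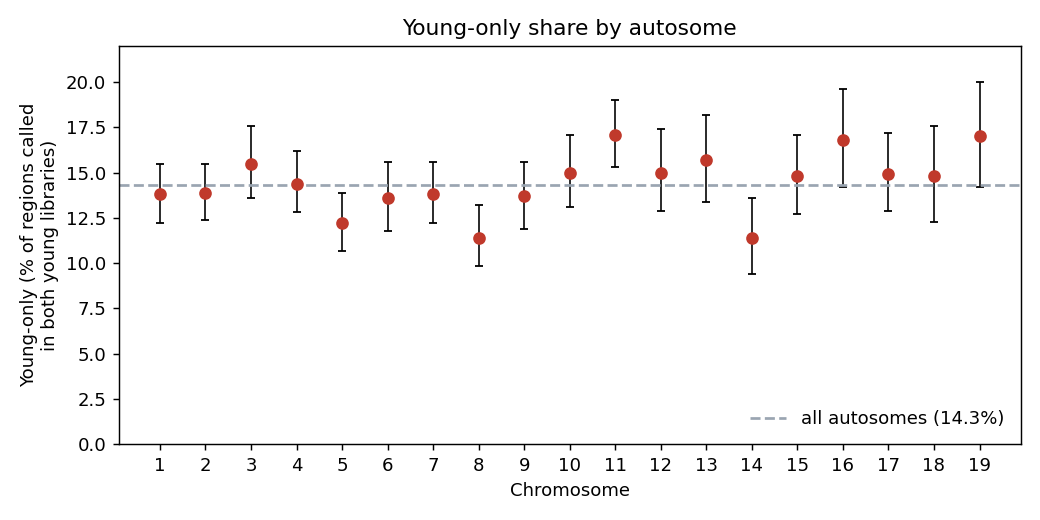
Young-only regions as a share of regions called in both young libraries (y axis, %) by autosome (x axis); points are shares, whiskers 95% exact binomial intervals and the dashed line the share over all autosomes, 14.3%. Chromosome 11 stands highest at 17.1% and chromosomes 8 and 14 lowest at 11.4%.

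The neighbourhoods of young-only regions were like those of most other regions that both young libraries called. A median of 10 other merged regions lay within 50 kb on either side (quartiles 7 and 13), against 8 for old-only regions (5 and 12) and 8 for regions of the young control alone (5 and 11). The median was also 10 for regions missing from old TSA alone, and 11 for those missing from old control alone (7 and 14) and for those called in all 4 libraries (8 and 15). It was 10 as well for regions of both TSA libraries and neither control (6 and 13) and for those missing from the young control alone (7 and 14). A median of 10 was thus not particular to regions that both young libraries called. The nearest merged region of any kind was a median of 2700 bp away. It was called in all 4 libraries for 12.3% of young-only regions, 12.2% of regions missing from old control alone and 7.45% of old-only regions. The share was 9.93% for regions of both TSA libraries and neither control, and 10.0% for those missing from the young control alone. Regions called in all 4 libraries were 8.95% of all merged regions. The nearest merged region was itself young-only for 3.26% of young-only regions, where young-only regions were 2.12% of all. The same share was 3.24% around regions missing from old control alone and 1.72% around old-only regions, so it was not a trait of young-only regions alone.

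Some young-only regions lay close together. Of the 3470, 953 (27.5%, 26.0 to 29.0%) had another within 50 kb. This share depends on the number of regions in a set, and was 26.3% for the 3303 regions missing from old control alone, a set of like size. With gaps of up to 50 kb, 2517 regions stood alone, 338 runs held 2 regions, 71 held 3, 12 held 4, 2 held 5 and 1 held 6. The run of 6 lay on chromosome 19 from 57080501 to 57231500, and the runs of 5 on chromosome 2 from 156438501 to 156558900 and chromosome 9 from 45784901 to 45893700. These 3 runs were picked after their values were seen. Of the 2413 windows of 1 Mb with a merged region, 908 held no young-only region, 620 held 1 and 148 held 5 or more.

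The window with most young-only regions was chromosome 2 between 30 and 31 Mb, with 11 of the 37 regions that both young libraries called there, or 29.7% (15.9 to 47.0%). Old mice were not without calls in this window. It held 138 merged regions, of which 50 were called in young control, 93 in young TSA, 60 in old control and 69 in old TSA. In 6 of the 11 regions the young calls were identical, among them chromosome 2 from 30092201 to 30094100 and from 30247601 to 30249500, each 1900 bp in both libraries. The gaps to the nearest old call ran from 100 to 9500 bp with a median of 1000 bp. The young-only regions of this window thus lay among calls of the old libraries.

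The next windows were chromosome 3 between 121 and 122 Mb, with 10 of 35 regions (28.6%, 14.6 to 46.3%), and chromosome 11 between 117 and 118 Mb, with 10 of 42 (23.8%, 12.1 to 39.5%). On chromosome 3 the young calls were identical in 4 of the 10, TSA covered more in 5 and the control in none, and the gaps to old calls ran from 1100 to 13300 bp. On chromosome 11 the calls were identical in 2 of the 10, TSA covered more in 4 and the control in 3, and the gaps ran from 100 to 6100 bp. The windows were ranked by their counts, so their high shares are a description. None of the regions in the 3 windows overlapped the gained or lost list of the young mice. Over all young-only regions these shares were only 1.64% and 0.317%, so the absence says little about these windows.

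**Figure D5:**
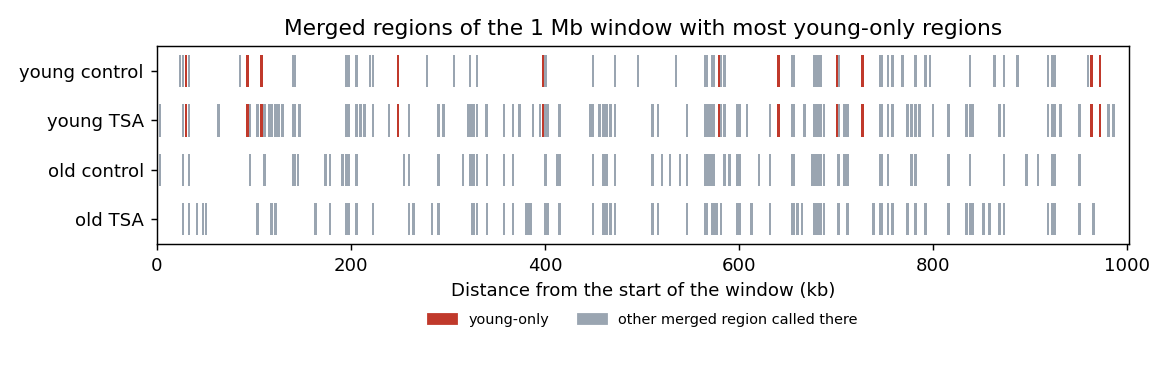
Merged regions in the window of chromosome 2 with most young-only regions, by distance from its start (x axis, kb) and by library that called them (rows); red bars are young-only regions, grey bars other merged regions called in that library, and bars narrower than 2.5 kb are drawn at that width. The 11 red bars appear in both young rows and lie between grey bars of the old rows.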

How the data were processed

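The authors deposited 8 lists of regions, 1 per library and 1 per library of the regions higher there than in the other treatment of that age, as the file names were read. Each row holds a chromosome, start and end, all multiples of 100 bp. Reads were aligned with Bowtie 0.12.7 and the build is mm9, per the submitters' processing notes. The region caller and its threshold are not named in the sources used here.

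Starts are printed counting from 1. Overlap means at least 1 bp. Gaps run edge to edge. Intervals are exact binomial (Clopper-Pearson) at the 95% level. Regions were not joined to genes and no sequence was read, since the reference tables are of another build. The functions were tested on simulated lists. Python 3.11.15, numpy 2.4.6, pandas 2.3.3, scipy 1.17.1 and matplotlib 3.10.9 were used.

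The named regions were the 5 widest, the 5 farthest from an old call, the 5 widest in each young differential list, and the 3 windows of 1 Mb with most members. The members and rules were chosen with earlier results of these data known.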

Additional observations from a re-analysis of the deposited data

How the results depend on the processing

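The number of young-only regions stayed within 1.5 times of 3470 under the 6 alternatives for which it was counted, from 2425 to 3499. The share of regions of both young libraries that lacked an old call was 13.1% when an old call within 500 bp counted, 12.6% when regions closer than 1 kb were merged, 15.1% without merging at 50% reciprocal overlap, and 18.4% with only calls at or above their library's median width. In that order of settings the share with another young-only region within 50 kb was 25.6%, 24.0%, 25.6% and 23.7%. The median gap to an old call was 4500 bp when an old call within 500 bp counted, 5100 bp with merging within 1 kb, and 7200 bp with the wider calls only, where fewer old calls were left by construction. The gained share was 1.20% without merging and 3.26% with the wider calls. The lost share was 0.749% with merging within 1 kb. Without merging the median width was 1600 bp. Shared sequence was 58.7% with merging within 1 kb, 71.1% when young calls had to share 500 bp, 75.4% without merging and 76.1% with the wider calls. As covered length, young-only regions were 2.23% of all merged sequence. The other 29 of 49 values moved by less than their counting interval or, for the number of regions, by under 1.5 times. No paired analysis was possible because each group has 1 library and no test was run. Leaving out a library would remove a whole group. Depth is unknown and the lists hold no score, so calls cannot be weighted by their signal.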

Other observations

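The X chromosome was outside the rule. It held 27 regions called in both young libraries and neither old library, which were 18.9% (12.8 to 26.3%) of the 143 regions of that chromosome that both young libraries called. This interval includes the 14.3% of the autosomes. The old-only regions of the X chromosome were 359 of 639, or 56.2% (52.2 to 60.1%), above the autosomal 25.6%. The labels do not state the sex of the animals. On the Y chromosome both young libraries called 16 merged regions and both old libraries 13. What underlies the X chromosome share was not tested.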
